A study of Mus musculus with 9 samples.

Results

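Krüppel-like factors (KLF proteins) are transcription factors that carry C2H2 zinc fingers and bind CACCC and GC boxes in promoters and enhancers. They form groups by the partners they recruit. One group binds acetylases and mostly activates, a second binds the corepressor CtBP, and another the Sin3 corepressor. In the brain they are known for roles in axon growth, in the response of cells to glucocorticoid and thyroid hormones, and in the vessel wall. Described here are 10 Krüppel-like factor genes, *Klf2*, *Klf3*, *Klf4*, *Klf6*, *Klf7*, *Klf9*, *Klf10*, *Klf12*, *Klf13* and *Klf15*, found by symbol among the 55401 genes of the count table. All 10 members passed the filter on low counts, along with 17818 genes in all.

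RNA from bulk forebrain of female mouse embryos at E16 to E17 was sequenced as poly(A) RNA in 5 wild-type (WT, *Npas3*+/+) and 4 heterozygous (HET, *Npas3*+/-) embryos. The mice were on the C57BL/6J background, the knockout allele is constitutive, so that every cell of a HET embryo carries it, and WT embryos were littermates of the same matings. NPAS3 is a transcription factor of the bHLH-PAS family, and the samples were made to study what it contributes to bioenergetic processes. The tissue is whole forebrain, although astrocytes are given as the cell type in the labels, and markers of neurons, radial glia, vessels, microglia and red cells all had reads in it. The total count per embryo was 42640218 to 62830060. The targeted gene, *Npas3*, was at 29.7 to 40.8 CPM (reads scaled to library size by the TMM method) in WT embryos. In HET embryos *Npas3* was at 27.8 to 34.1 CPM, and the groups overlapped. For *Npas3* edgeR gave a log2 fold change of −0.30 with a 95% interval of −0.52 to −0.07. The unadjusted p was 0.0134 and the adjusted p was 0.877. In 17 alternative fits the log2 fold change was −0.37 to −0.25. Choroid plexus RNA was unequal between the libraries. The summed level of 10 choroid plexus markers was 18.3 to 2988 CPM in WT and 27.8 to 545 CPM in HET embryos, and it was high in WT embryos 15, 16 and 41 and in HET embryo 24. Choroid plexus RNA was therefore also unequal between the genotypes. All 10 markers had a log2 fold change below 0, with a median of −3.35. In edgeR 8 of them had an unadjusted p under 0.05 and none passed after adjustment.

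*Klf15* (ENSMUSG00000030087) was the member with the clearest difference. Its level in HET was 0.608 of that in WT, and it was the 1 member of 10 that passed the threshold of 0.05 on the adjusted p. Over all genes tested, 0.14% passed in either direction and 0.112% were lower in HET. *Klf15* encodes a regulator of glucose, lipid and amino acid metabolism that glucocorticoids and fasting are known to induce. No member was higher in HET at that threshold, where 0.0281% of all genes were. The member log2 fold changes had a median of 0.01, with 5 above and 5 below 0, and the median over all genes was −0.0046.

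The promoters of the 3 members whose unadjusted p in edgeR was under 0.05 are shown because bHLH proteins such as NPAS3 act at E-boxes, sites of the form CANNTG. The sequences are from RefSeq on GRCm38.p6, with 250 bases before the annotated start written 5′ to 3′ in the direction of the gene and CANNTG in capitals. They lie at chr6:90462326-90462575 on the plus strand for *Klf15*, at chr7:63938916-63939165 on the minus strand for *Klf13* and at chr19:23140976-23141225 on the plus strand for *Klf9*.
Klf15: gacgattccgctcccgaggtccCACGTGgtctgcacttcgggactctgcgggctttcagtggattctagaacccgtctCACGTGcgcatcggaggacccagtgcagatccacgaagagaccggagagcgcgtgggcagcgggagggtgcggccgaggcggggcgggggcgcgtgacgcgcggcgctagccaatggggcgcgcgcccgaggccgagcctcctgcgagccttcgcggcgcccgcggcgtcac
Klf13: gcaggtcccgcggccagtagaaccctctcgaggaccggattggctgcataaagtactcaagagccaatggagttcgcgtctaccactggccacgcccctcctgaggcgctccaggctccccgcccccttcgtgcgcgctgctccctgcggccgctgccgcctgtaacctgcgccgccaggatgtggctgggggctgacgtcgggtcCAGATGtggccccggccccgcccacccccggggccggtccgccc
Klf9: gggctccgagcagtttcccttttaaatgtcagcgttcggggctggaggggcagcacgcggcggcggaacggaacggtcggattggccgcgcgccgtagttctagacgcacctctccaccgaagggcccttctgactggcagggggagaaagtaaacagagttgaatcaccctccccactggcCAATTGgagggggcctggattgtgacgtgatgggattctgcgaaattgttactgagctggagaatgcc
The *Klf15* window held 2 CANNTG matches, and both were the palindrome CACGTG, at −228 to −223 and −172 to −167, where −1 is the last base before the start. The *Klf13* and *Klf9* windows held 1 match each, in neither case CACGTG. Both strands were searched, and every CACGTG match is also counted as CANNTG. Of 32817 RefSeq promoter windows of this length, 66.2% held CANNTG at least once and 31.8% at least 2 times. CACGTG was rarer, with at least 1 match in 6.02% of windows and at least 2 in 0.43%. These shares were not matched for base content, and the *Klf15* window was 72.0% G or C. *Klf4* and *Klf6*, members without a call, also had 1 CACGTG match each in their windows. These matches describe letters in a window and say nothing of whether a protein binds there.

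*Klf15* maps to the plus strand of chromosome 6, bases 90462576 to 90475238 of GRCm38. Its level in WT embryos 5, 15, 16, 41 and 43 was 9.72, 9.11, 10.4, 10.1 and 10.4 CPM. In HET embryos 5, 6, 7 and 24 it was 6.28, 6.38, 6.51 and 4.97 CPM. No HET embryo reached the lowest WT embryo, and the gap between the groups was wider than the spread inside either one. WT embryos averaged 9.93 ± 0.536 CPM (SD, n = 5), and HET embryos averaged 6.04 ± 0.715 CPM (SD, n = 4). For this difference edgeR's quasi-likelihood test gave a log2 fold change of −0.72, a standard error of 0.11, a 95% interval of −0.95 to −0.48 and an adjusted p of 0.0291. *Klf15* ranked at 21 by p among all genes tested, and its row held 259 to 638 reads per embryo. None of the 50-base words of its exons was found in another annotated transcript.

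The call of *Klf15* was not kept in fits with fewer embryos. Leaving out any 1 of the 9 embryos gave log2 fold changes of −0.76 to −0.64 with adjusted p-values of 0.0555 to 0.122, so that no such fit kept the call. Without the 4 libraries with much choroid plexus RNA, which left 2 WT and 3 HET embryos, the log2 fold change was −0.65 with an adjusted p of 0.640, and 0.0839% of genes were called. Within WT, *Klf15* averaged 9.86 CPM in the 3 embryos with much choroid plexus RNA and 10.04 CPM in the other embryos. When edgeR was given the mean level of the choroid plexus markers as a covariate, the log2 fold change was −0.77 and the adjusted p was 0.0413, in a fit that called 0.129% of genes. DESeq2 gave *Klf15* an adjusted p of 6.18e-08, where 0.381% of genes were called, and limma gave 0.0216, where 0.14% were called. In bulk tissue, fewer cells that express a gene and less RNA per cell cannot be told apart.

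**Figure D1:**
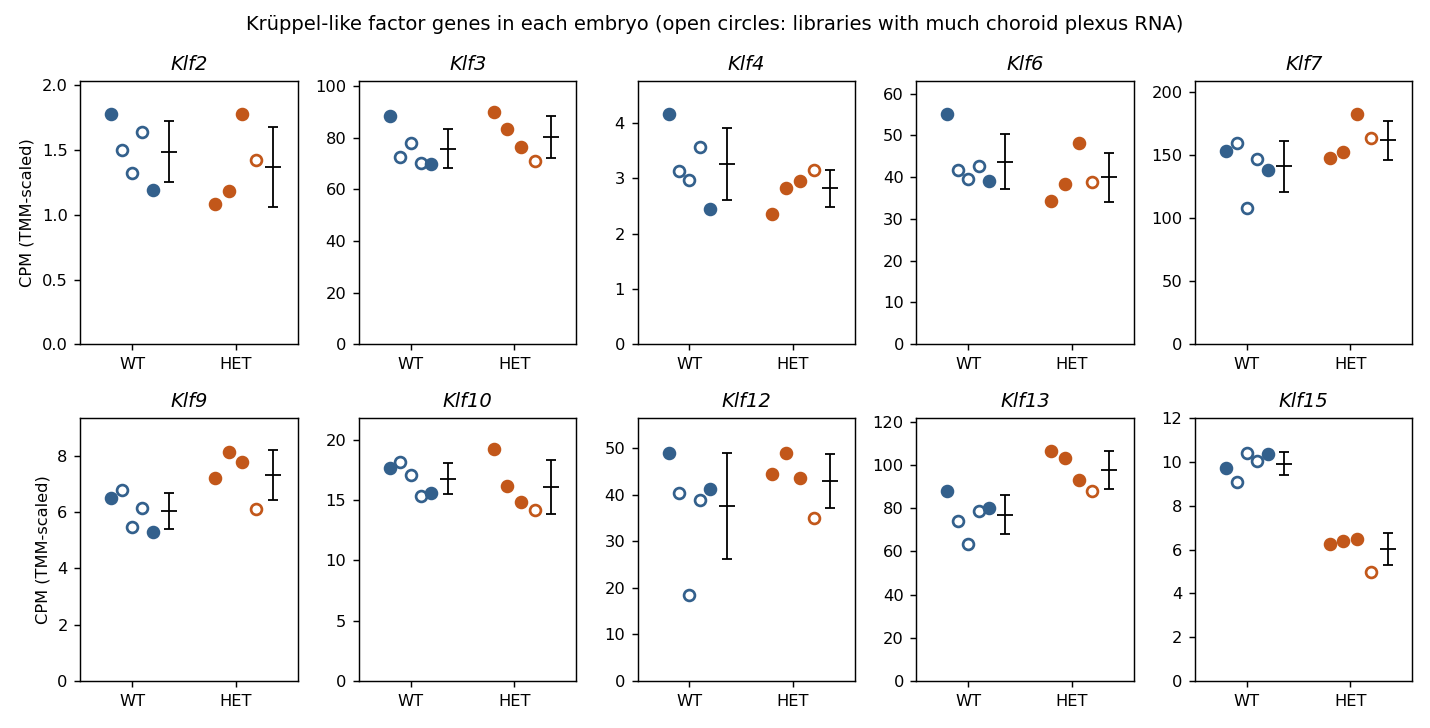
Level of the 10 Krüppel-like factor genes in each embryo, in TMM-scaled CPM on axes that start at 0, with WT in blue and HET in orange. Each circle is 1 embryo, open circles mark the 4 libraries with much choroid plexus RNA, and the black bars give the mean and SD. *Klf15* is the panel in which the groups lie far apart, at 9.11 to 10.4 CPM in WT and 4.97 to 6.51 CPM in HET. In *Klf13* the lowest HET circle, at 88.21 CPM, is level with the highest WT circle, at 88.20 CPM.

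Among the members that bind Sin3, *Klf9* and *Klf13* were measured at higher means in HET and *Klf10* was not, and none of them passed the threshold. *Klf13*, on chromosome 7 at 63886351 to 63938915 (minus strand), encodes a factor known for its action on a chemokine gene in T lymphocytes. Its level in WT embryos 5, 15, 16, 41 and 43 was 88.20, 74.3, 63.6, 78.7 and 79.9 CPM. In HET embryos 5, 6, 7 and 24 it was 106.8, 103.5, 92.9 and 88.21 CPM. The groups were apart by no more than the distance between WT embryo 5 and HET embryo 24, and with DESeq2 size factors in place of TMM they overlapped. From edgeR came a log2 fold change of 0.35, a standard error of 0.09, a 95% interval of 0.14 to 0.55, an unadjusted p of 0.0037 and an adjusted p of 0.558.

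*Klf9*, a gene known to respond to thyroid hormone and to glucocorticoids, maps to chromosome 19 at 23141226 to 23168134 (plus strand). In the same order of WT embryos it was at 6.49, 6.79, 5.48, 6.15 and 5.28 CPM. In HET embryos 5, 6, 7 and 24 it was 7.21, 8.15, 7.79 and 6.12 CPM. HET embryos 5, 6 and 7 were above every WT embryo, and HET embryo 24 was inside the WT range. The log2 fold change was 0.28 (95% interval 0.01 to 0.55), with an unadjusted p of 0.0444 and an adjusted p of 0.911 in edgeR. *Klf10*, the TGF-beta-inducible early gene, was at 15.3 to 18.2 CPM in WT and 14.2 to 19.2 CPM in HET embryos. The groups overlapped, with a log2 fold change of −0.06 (95% interval −0.29 to 0.17), which ran from −0.16 without HET embryo 5 to −0.0024 without HET embryo 24.

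Counted over all members, the unadjusted p was under 0.05 in edgeR for 2 members higher in HET, *Klf9* and *Klf13*, and for 1 lower, *Klf15*. Over all genes tested these shares were 2.32% higher and 3.09% lower. The groups did not overlap for 2 members, *Klf13* and *Klf15*, where 1.85% of all genes tested had groups that did not overlap. Without the 4 libraries with much choroid plexus RNA, *Klf9* joined them, but with 2 WT embryos left 17.4% of all genes met that description.

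The 4 members of the group that binds acetylases, *Klf2*, *Klf4*, *Klf6* and *Klf7*, had no call. *Klf2*, which shear stress induces in vessel endothelium, was at 1.19 to 1.78 CPM in WT and 1.08 to 1.78 CPM in HET embryos. HET differed from WT by a log2 fold change of −0.12 (95% interval −0.54 to 0.29), from 50 to 104 reads per embryo. *Klf4*, known from endothelium, from the skin barrier and as a reprogramming factor, was at 2.45 to 4.16 CPM in WT and 2.36 to 3.15 CPM in HET embryos. The fitted difference was −0.21 on the log2 scale (95% interval −0.58 to 0.16). The intervals of *Klf2* and *Klf4* were wide enough to hold falls as large as −0.54 and −0.58 on the log2 scale. *Klf6*, an early-response gene of injured tissue, was at 55.2 CPM in WT embryo 5, and the other WT embryos had 39.2 to 42.6 CPM. In HET embryos 5, 6, 7 and 24 *Klf6* was at 34.3, 38.5, 48.2 and 38.8 CPM, with a log2 fold change of −0.13 (95% interval −0.40 to 0.14). Without WT embryo 5 the log2 fold change was −0.03 for *Klf6*, −0.05 for *Klf2* and −0.11 for *Klf4*. Without HET embryo 5 it was −0.06, −0.03 and −0.13 for these genes, and without HET embryo 7 it was −0.23 for *Klf6* and −0.27 for *Klf2*.

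*Klf7*, which is known for its part in the outgrowth of axons, had the highest level per kilobase of exons of the 10 members. It maps to chromosome 1 at 64029447 to 64122282 (minus strand). It was at 108.4 to 159.9 CPM in WT and 148.2 to 182.9 CPM in HET embryos, and the groups overlapped. The log2 fold change of *Klf7* was 0.20 (95% interval −0.04 to 0.44), with an unadjusted p of 0.0998 in edgeR. Of its exonic bases, 39.4% are also covered by genes on the opposite strand. The use of strand in the counting was not stated in the sources used here, so how reads from these shared bases were counted is not known. *Klf3* and *Klf12* bind CtBP and act mostly as repressors. *Klf3* was at 70.0 to 88.5 CPM in WT and 71.0 to 90.0 CPM in HET embryos, with a log2 fold change of 0.08 (95% interval −0.12 to 0.28). *Klf12*, first described as a repressor of an AP-2 gene, was at 18.6 CPM in WT embryo 16, at 38.9 to 49.0 CPM in the other WT embryos and at 34.9 to 49.0 CPM in HET embryos. For *Klf12* the fitted log2 fold change was 0.19, with a 95% interval of −0.29 to 0.68, the widest interval of the 10 members. That value rested on WT embryo 16, without which it was 0.02, and it was 0.01 with the choroid plexus covariate and 0.31 without WT embryo 5. For *Klf3* it was 0.02 without HET embryo 5 and 0.14 without WT embryo 5, and for *Klf7* it was 0.11 without WT embryo 16.

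The change of *Klf15* was also set against that of each other member inside the same embryo, as the log2 ratio of *Klf15* to that member. *Klf15* was taken for its known difference, so these ratios are a description and carry no p. All 9 ratios were lower in HET than in WT. The difference was −1.08 against *Klf13*, −1.001 against *Klf9*, −0.98 against *Klf12*, −0.93 against *Klf7*, −0.81 against *Klf3* and −0.66 against *Klf10*. These 6 ratios did not overlap between the groups. Against *Klf6*, *Klf2* and *Klf4* the difference was −0.60, −0.59 and −0.53, with overlap of the groups. The 9 ratios share the *Klf15* values and are not 9 independent results.

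Divided by the length of their exons, the members kept nearly the same order of levels in all embryos. The mean in WT was 17.4 CPM per kilobase for *Klf7*, 10.2 for *Klf13*, 9.95 for *Klf6*, 6.75 for *Klf3*, 5.39 for *Klf12*, 4.01 for *Klf10*, 3.56 for *Klf15*, 1.25 for *Klf9*, 1.07 for *Klf4* and 0.806 for *Klf2*. *Klf13* was above *Klf6* in 3 of 5 WT embryos, so these neighbours in the order did not differ beyond their spread, and in 4 of 4 HET embryos. *Klf12* was above *Klf10*, and *Klf9* above *Klf4*, in 4 of 5 WT embryos each, whereas every other neighbouring pair kept its order in 5 of 5. In HET, *Klf6* was above *Klf3* in 3 of 4 embryos, and every other pair kept its order in 4 of 4. *Klf15* stayed between *Klf10* and *Klf9* in every embryo of both groups while its mean went from 3.56 CPM per kilobase in WT to 2.16 in HET. Its share of the summed length-scaled level of the 10 members was 5.97% ± 0.915 (SD, n = 5) in WT embryos, and 3.35% ± 0.262 (SD, n = 4) was left in HET embryos.

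**Figure D2:**
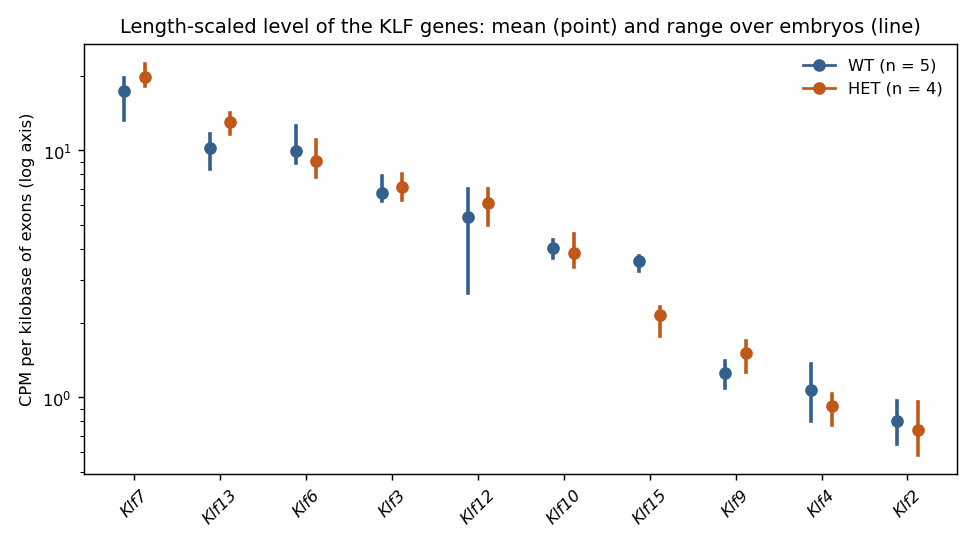
Level of each Krüppel-like factor gene in CPM per kilobase of exons, on a log axis, in the order of the WT means. Points are means and lines run from the lowest to the highest embryo, with 5 WT embryos in blue and 4 HET embryos in orange. *Klf7* is highest at 17.4 CPM per kilobase in WT and *Klf2* lowest at 0.806, and the lines of the groups are clearly apart for *Klf15* alone, at means of 3.56 and 2.16.

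Single embryos stood at the end of the range for several members at once. WT embryo 5 had the highest level of *Klf2*, *Klf4* and *Klf6*, and HET embryo 5 had the lowest of the same 3 genes together with the highest of *Klf3*, *Klf10* and *Klf13*. WT embryo 16 had the lowest level of *Klf7*, *Klf12* and *Klf13* and the highest of *Klf15*. As a description over the 9 embryos, *Klf2* and *Klf6* had the most similar profiles, with a root mean square difference of 0.0878 on the log2 scale (with 0.5 CPM added) after centring on the WT mean. The same measure was 0.122 for *Klf2* and *Klf4*, 0.129 for *Klf3* and *Klf10* and 0.156 for *Klf9* and *Klf13*. *Klf15* was nearest to *Klf4*, at 0.422. The added 0.5 CPM shrinks the differences of *Klf2*, which was at 1.08 to 1.78 CPM over the embryos.

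Outside the 10 members, 5 of 7 other Krüppel-like factor genes passed the filter on low counts and none was called. *Klf14* and *Klf17* did not pass it. *Klf16* was at 16.5 to 18.5 CPM in WT and 20.2 to 23.99 CPM in HET embryos, which did not overlap. For *Klf16* edgeR gave a log2 fold change of 0.28, a standard error of 0.08, an unadjusted p of 0.0039 and an adjusted p of 0.558. The log2 fold change was 0.30 for *Klf1*, the erythroid member of the family, 0.08 for *Klf5*, −0.01 for *Klf8* and −0.16 for *Klf11*. That of *Klf1* had a 95% interval of −0.31 to 0.91 and came from 12 to 32 reads per embryo. Of the 9 Sp genes, the sister family that binds the same GC boxes, 7 were tested and none was called. Their log2 fold changes were 0.13 for *Sp1*, −0.04 for *Sp2*, −0.08 for *Sp3*, −0.01 for *Sp4*, 0.06 for *Sp5*, 0.14 for *Sp8* and 0.04 for *Sp9*, and each 95% interval held 0.

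**Figure D3:**
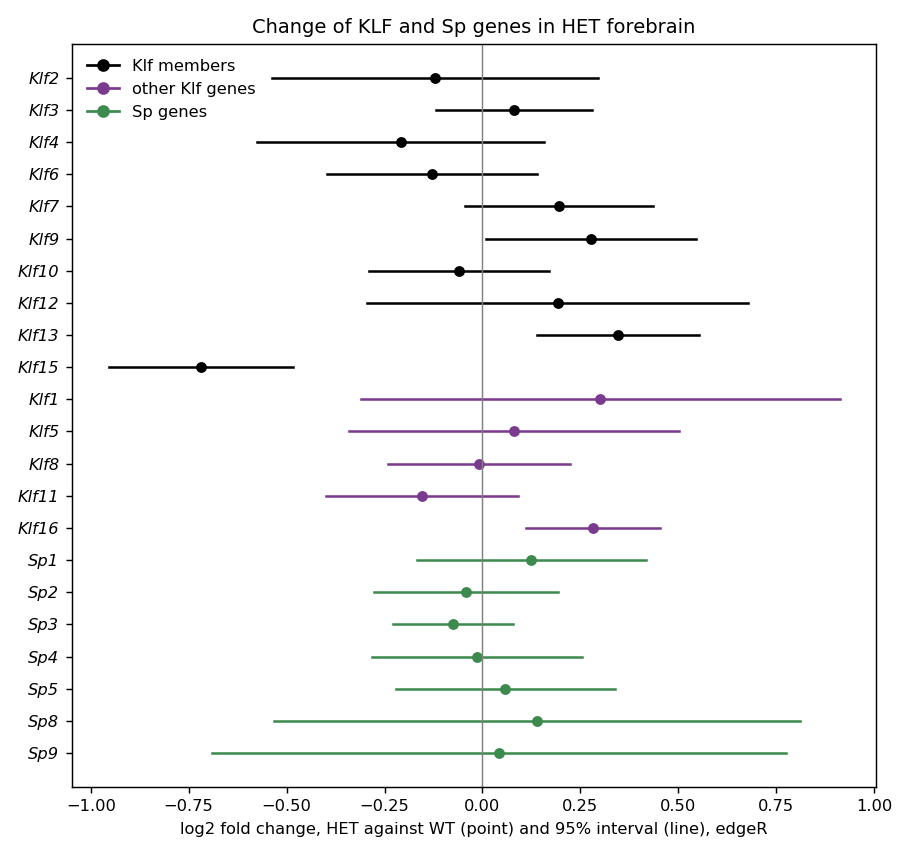
Log2 fold change of HET against WT from edgeR (points) with its 95% interval (lines) for the 10 Krüppel-like factor genes in black, 5 other Klf genes in purple and 7 Sp genes in green. The interval of *Klf15*, −0.95 to −0.48, is wholly below 0, and those of *Klf13* (0.14 to 0.55), *Klf9* (0.01 to 0.55) and *Klf16* lie above 0.

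Genes of pathways linked to these factors were then counted. None of the 9 partner genes (acetylases, CtBP and Sin3 and HDAC proteins) was called, and their median log2 fold change was −0.04. *Ctbp1*, a CtBP gene, was at 298.0 CPM in WT and 306.7 CPM in HET, and *Hdac2*, a deacetylase of the Sin3 complex, was at 439.5 and 415.5 CPM. Of 8 genes described as KLF15 targets in liver, muscle, fat or heart, 6 were tested and none was called. The median log2 fold change of these 6 was −0.17, with 3 above 0 and 3 below it. In edgeR 3 of the 6 had an unadjusted p under 0.05, all lower in HET. Over all genes tested that share was 3.09%.

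*Acss1*, the mitochondrial acetyl-CoA synthetase, had the largest difference among the 6 KLF15 targets tested. Its level in WT embryos 5, 15, 16, 41 and 43 was 37.2, 23.0, 24.97, 30.9 and 28.5 CPM. In HET embryos 5, 6, 7 and 24 it was 11.3, 18.8, 16.9 and 17.2 CPM. The highest HET embryo was below the lowest WT embryo. A log2 fold change of −0.85 with a standard error of 0.17 was fitted, and the adjusted p was 0.151 in edgeR, 0.0265 in edgeR without the filter on low counts and 0.000466 in DESeq2. The unadjusted p was also under 0.05 in edgeR for *Slc2a4*, the insulin-regulated glucose transporter, with a log2 fold change of −0.38, and for *Prodh*, proline dehydrogenase, with −0.37. Both overlapped between the groups, and *Prodh* had 43 to 84 reads per embryo. *Kcnip2*, a potassium channel subunit of the heart, had a log2 fold change of 0.26 and an unadjusted p of 0.147.

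Branched-chain amino acid catabolism, a pathway in which KLF15 acts in muscle and heart, had 24 genes, all of them tested and none called. The log2 fold change was below 0 for 22 of the 24, against 51.5% of all genes tested, within a range of −0.28 to 0.10 and with a median of −0.10. An unadjusted p under 0.05 in edgeR was found for *Aldh6a1*, with a log2 fold change of −0.18, and for *Acad8*, with −0.17. In *Aldh6a1*, 18.6% of exonic bases are shared with a gene on the opposite strand. Without the 4 libraries with much choroid plexus RNA, 16 of the 24 were below 0, and the log2 fold change was −0.09 for *Aldh6a1* and −0.05 for *Acad8*. *Acat1* and *Dld*, the genes of this list with the highest CPM, had log2 fold changes of −0.10 and −0.12.

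Of 12 genes of the glucocorticoid receptor and its response, none was called, and the median log2 fold change was −0.01. *Sgk1*, a kinase induced by glucocorticoids, averaged 23.2 ± 3.70 CPM (SD, n = 5) over WT embryos, and HET embryos averaged 18.7 ± 3.28 CPM (SD, n = 4). The log2 fold change of *Sgk1* was −0.31 with an unadjusted p of 0.0498 in edgeR, and −0.13 without the 4 libraries with much choroid plexus RNA. *Fkbp5* and *Ddit4*, which the same hormones induce, had log2 fold changes of 0.09 and 0.32 with intervals that held 0. Of 6 genes of thyroid hormone signalling, none was called, and 2 had an unadjusted p under 0.05 in edgeR, both higher in HET. Over all genes tested that share was 2.32%. Of the 6 genes, 4 had a log2 fold change above 0 and 2 below it. *Dio2*, the deiodinase that activates the hormone, was at 15.3 CPM in WT and 21.3 CPM in HET (log2 fold change 0.48), and *Dio3*, which inactivates it, was at 2.01 and 3.23 CPM (log2 fold change 0.68). Both overlapped between the groups, *Dio2* at 11.6 to 19.6 CPM in WT and 18.1 to 24.4 CPM in HET embryos. *Dio3* was at 1.30 to 2.87 CPM in WT and 2.38 to 3.59 CPM in HET embryos. The adjusted p in edgeR was 0.788 for each. For *Dio2* the log2 fold change was 0.78 without the 4 libraries with much choroid plexus RNA, with an adjusted p of 0.792 in edgeR. The receptor gene *Thra* had a log2 fold change of 0.08.

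Of 7 endothelial genes described as controlled by KLF2 or KLF4, none was called, and their median log2 fold change was −0.10. *Thbd*, the thrombomodulin gene, was at 2.52 CPM in WT and 1.57 CPM in HET (log2 fold change −0.68, unadjusted p 0.0294 in edgeR). Without the 4 libraries with much choroid plexus RNA the log2 fold change of *Thbd* was −0.27, and WT embryos 15, 16 and 41 had the most *Thbd*, at 3.23, 2.65 and 3.26 CPM. *Vcam1*, a leukocyte adhesion molecule, was at 68.7 and 55.2 CPM (log2 fold change −0.31, unadjusted p 0.0217 in edgeR). Beside these values, the summed level of 8 endothelial markers was 99.1 to 153 CPM in WT and 94.8 to 102 CPM in HET embryos, with 7 of 8 markers below 0, 3 of them (*Pecam1*, *Kdr* and *Slco1a4*) at an unadjusted p under 0.05 in edgeR and none called. *Slco1a4* was at 18.4, 12.2 and 15.2 CPM in WT embryos 15, 16 and 41, at 3.61 CPM in HET embryo 24 and at 0.0722 to 0.289 CPM in the others, so it moved with the choroid plexus libraries. The other 7 markers summed to 99.1 to 134.2 CPM in WT and 91.6 to 101.3 CPM in HET embryos. The log2 fold change of *Pecam1* was −0.06 and that of *Kdr* −0.10 without the 4 libraries. The part of these markers in the result was not tested. *Plpp3*, a lipid phosphatase gene, had a log2 fold change of 0.04. Of 7 genes of the early TGF-beta response, none was called, and the median log2 fold change was 0.02. *Id1*, a target of BMP signalling, averaged 15.2 ± 3.78 CPM (SD, n = 5) over WT embryos, and HET embryos averaged 9.75 ± 1.09 CPM (SD, n = 4), with no overlap. *Id1* had a log2 fold change of −0.64, an unadjusted p of 0.0035 and an adjusted p of 0.555 in edgeR. The receptor-regulated factor *Smad2* and its inhibitor *Skil* had log2 fold changes of 0.02 and 0.11.

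**Figure D4:**
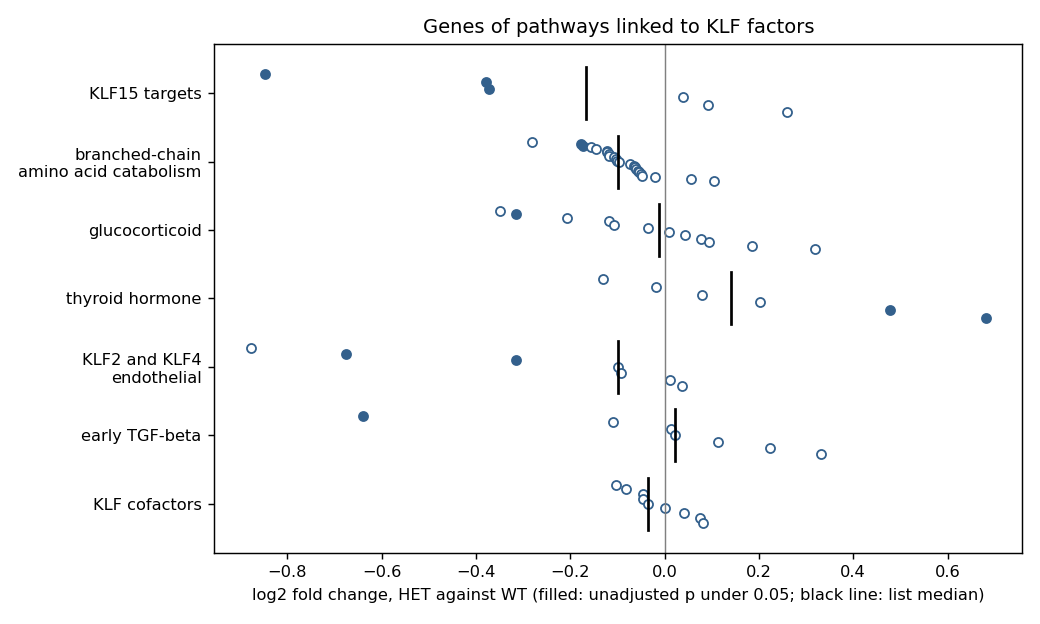
Log2 fold change of HET against WT from edgeR for each tested gene of 7 lists linked to Krüppel-like factors. Each circle is 1 gene, filled where the unadjusted p is under 0.05, and the black line is the median of the list. In branched-chain amino acid catabolism 22 of 24 circles lie left of 0 in a narrow range of −0.28 to 0.10, and the lowest KLF15 target is *Acss1* at −0.85.

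Among all tested genes other than the members, the 5 whose profile over the 9 embryos was most like that of *Klf15* were *Kcne1l*, *Gm45774*, *Emid1*, *Nt5e* and *Ermn*. Their root mean square differences from *Klf15* were 0.115, 0.124, 0.130, 0.137 and 0.140 on the log2 scale with 0.5 CPM added, where the median over all 17808 genes was 0.491. The added 0.5 CPM shrinks the differences of genes near 1 CPM or below. *Kcne1l* went from 22.3 CPM in WT to 15.3 CPM in HET and *Emid1* from 20.6 to 13.4 CPM. *Gm45774*, *Nt5e* and *Ermn* had group means at or under 1.30 CPM, and the fitted log2 fold change of *Gm45774*, −1.94, was far from that of *Klf15*, −0.72. All 5 were lower in every HET than in every WT embryo, with adjusted p-values of 0.0727 to 0.298 in edgeR, and that direction follows from the way they were chosen.

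Markers of other cell types were summed to describe what the tissue held. The astrocyte markers came to 667 to 772 CPM in WT and 662 to 742 CPM in HET embryos. Markers of high level, such as *Slc1a3* (284.8 CPM in WT) and *Aldoc* (188.4 CPM), weigh most in that sum. In edgeR 2 of 7 tested had an unadjusted p under 0.05, both lower, where the share over all genes tested was 3.09%. These were *Aqp4*, the water channel of astrocyte endfeet, at 1.48 CPM in WT and 0.475 CPM in HET, and *Aldh1l1*, at 22.1 and 9.89 CPM. The groups did not overlap for *Aqp4*, which had 7 to 128 reads per embryo, and overlapped for *Aldh1l1*. Of the 7 tested, 5 had a log2 fold change below 0 and 2 above it, *Aldoc* (0.15) and *Gfap* (0.08, but −0.12 without HET embryo 7 and −0.09 without WT embryo 5), and *Gja1* had −0.01. *S100b* did not pass the filter on low counts and was at 0.147 CPM in WT and 0.260 CPM in HET. *Aqp4* was called by DESeq2 (adjusted p 0.031), and by edgeR without HET embryo 7 (adjusted p 0.0209). The radial glia markers came to 2109 to 2701 and 1779 to 2352 CPM, and *Fabp7*, the fatty acid binding protein of these cells, was called lower with a log2 fold change of −0.86 and an adjusted p of 0.0223 in edgeR. That call was lost when WT embryo 15, 41 or 43 or HET embryo 6 or 7 was left out (adjusted p 0.0561 to 0.115), and without the 4 libraries with much choroid plexus RNA (log2 fold change −0.79, adjusted p 0.467). Of the 7 radial glia markers 4 were below 0, and *Pax6* (0.12), *Hopx* (0.10) and *Nes* (0.04) were above it. The part of astrocyte and radial glia markers in the difference of *Klf15* was not tested. The summed markers overlapped between WT and HET for neurons (3114 to 3696 and 3011 to 3362 CPM), mural cells (111.7 to 148.1 and 120.7 to 127.0), meninges (15.3 to 55.5 and 22.0 to 28.7), microglia (36.7 to 46.7 and 38.2 to 46.9), red cells (208 to 567 and 378 to 442) and the oligodendrocyte lineage (53.7 to 86.3 and 58.4 to 98.4). In edgeR's test on all 9 embryos no gene of these lists was called apart from *Fabp7*, and none was at 0 in all embryos. All 6 meningeal markers had a log2 fold change below 0, with a median of −0.40 and 0 at an unadjusted p under 0.05. The choroid plexus markers had the largest shift of these lists, with a median of −3.35.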

How the data were processed

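RNA-seq was made from the forebrain of 5 WT and 4 HET embryos. The authors deposited raw counts, 1 whole number of reads for each gene and embryo. They aligned 1 read of each pair to GRCm38.p6 with STAR 2.7.9a and counted with featureCounts on GENCODE M25. Strand and multiple alignments are not stated in the sources used here.

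Samples were grouped by the genotype in the labels. Replicates were separate embryos, and no pair was identical. Counts were filtered with filterByExpr at a minimum count of 10, scaled by TMM and compared with edgeR 4.0.16 (quasi-likelihood test, Benjamini-Hochberg, threshold 0.05) in R 4.3.3, without covariates. The method was tested on simulated counts, in which genes varied independently and choroid plexus RNA did not differ between libraries. That test cannot show whether the calls hold in these libraries. The exact permutation test planned for the *Klf15* ratios is not reported, since *Klf15* was chosen with its difference known. DESeq2 1.42.0, limma 3.58.1, other scalings and filters, a choroid plexus covariate and fewer embryos were alternatives. Lengths, coordinates and shared words came from GENCODE M21 and promoters from RefSeq, which matched 9 of 10 members. The totals of 42640218 to 62830060 counts bear on counting error alone. Precision was also limited by the spread between embryos, which edgeR put at 16.8% of the level in its common estimate over genes. The members and lists were chosen with earlier results of these data known. Named genes were all members, every tested Klf and Sp gene, in the other lists genes with an unadjusted p under 0.05 or the 2 highest CPM, except in the marker lists, where some are given only as counts, and the 5 nearest profiles to *Klf15*. A gene that this rule names is not reported here.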

Additional observations from a re-analysis of the deposited data

Results flagged for a closer look

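In 64 groups of embryos examined, over the member, Klf, Sp and marker values, 6 had an embryo far from the rest of its own group by Dixon's criterion, and chance alone would give about 3.2. *Klf15* was at 4.97 CPM in HET embryo 24, below the other HET embryos at 6.28 to 6.51 CPM and on the side away from WT. *Klf6* was at 55.2 CPM in WT embryo 5, above 39.2 to 42.6 CPM in the other WT embryos. *Klf16* was at 23.99 CPM in HET embryo 7, above 20.2 to 20.7 CPM in the other HET embryos. *Sp2* was at 20.3 CPM in HET embryo 24, above 17.4 to 17.8 CPM. The summed mural cell markers were at 127.0 CPM in HET embryo 5, above 120.7 to 121.7 CPM. The summed choroid plexus markers were at 545 CPM in HET embryo 24, above 27.8 to 42.1 CPM in the other HET embryos.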

How the results depend on the processing

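The edgeR test called 25 genes, 5 higher and 20 lower in HET. DESeq2 called 84, 21 higher and 63 lower, and edgeR called 15 without the 4 libraries with much choroid plexus RNA, 3 higher and 12 lower. With the choroid plexus covariate 2 genes were higher. With 1 embryo left out, 14 to 23 genes were called, 0 to 5 higher and 13 to 20 lower. The number of members called was 0 without those 4 libraries and 0 to 0 with 1 embryo left out, and 1 under the other tools, scalings and filters and with the covariate. *Klf15* had a log2 fold change of −0.65 without the 4 libraries and −0.76 to −0.64 with 1 embryo left out. Fewer embryos were tested in these fits. Of the KLF15 targets, 1 (*Acss1*) was called with DESeq2 and 1 without the filter. Among astrocyte markers 1 was called with DESeq2, among radial glia markers 0 without the 4 libraries, and in each list 0 to 1 with 1 embryo left out. The members whose groups did not overlap were 2, and 1 with DESeq2 size factors, 3 without the 4 libraries and 2 to 3 with 1 embryo left out. *Klf10* turned to 0.0075 without the 4 libraries. There the log2 fold change also turned for *Klf1* (−0.0121), *Klf8* (0.0389), *Sp3* (0.0034), *Sp4* (0.0238), *Sp5* (−0.0443), *Sp8* (−0.0576) and *Sp9* (−0.14), and with the covariate for *Klf8* (0.0198), *Sp1* (−0.0181) and *Sp9* (−0.0627). With 1 embryo left out the ranges spanned 0 for *Klf5* (−0.0811 to 0.19), *Klf8* (−0.0751 to 0.0425), *Sp2* (−0.10 to 0.0406), *Sp4* (−0.11 to 0.0578), *Sp5* (−0.0030 to 0.14) and *Sp9* (−0.17 to 0.32). The difference of the log2 ratio of *Klf15* kept its sign. Without the 4 libraries it was −0.92 for *Klf13*, −1.05 for *Klf9*, −0.67 for *Klf12*, −0.79 for *Klf7*, −0.73 for *Klf3*, −0.65 for *Klf10*, −0.43 for *Klf6*, −0.51 for *Klf2* and −0.41 for *Klf4*. With 1 embryo left out it was −1.14 to −0.99 for *Klf13*, −1.08 to −0.94 for *Klf9*, −1.10 to −0.72 for *Klf12*, −1.01 to −0.82 for *Klf7*, −0.87 to −0.76 for *Klf3*, −0.73 to −0.59 for *Klf10*, −0.69 to −0.52 for *Klf6*, −0.72 to −0.47 for *Klf2* and −0.63 to −0.38 for *Klf4*. The cause of these changes was not tested. No paired analysis was possible. The groups share 1 embryo number, 5, and the labels do not say what the numbers stand for. The labels give no litter and no exact day within E16 to E17, so neither could be compared between the groups. Depth limits *Klf2*, with 50 to 104 reads per embryo, the most.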

Other observations

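The genes beside *Klf15* on chromosome 6 were looked at after their values were seen. *Gm44421*, which starts 3227 bases after the end of *Klf15* on the same strand, was at 0.685 to 1.02 CPM in WT and 0.238 to 0.634 CPM in HET embryos, which did not overlap. *Gm44421* had a log2 fold change of −0.85, an unadjusted p of 0.0082 and an adjusted p of 0.768 in edgeR. *Aldh1l1*, the folate enzyme used as an astrocyte marker, starts 11188 bases after the end of *Klf15* on the same strand. Its level in WT embryos 5, 15, 16, 41 and 43 was 24.8, 22.4, 16.3, 31.7 and 15.3 CPM, and in HET embryos 5, 6, 7 and 24 it was 2.79, 8.69, 18.5 and 9.62 CPM. HET embryo 7 was inside the WT range and the other HET embryos were below it, with a log2 fold change of −1.16 and an adjusted p of 0.904 in edgeR. *Cfap100*, on the minus strand 33778 bases before the start of *Klf15*, had a log2 fold change of −0.62 with an unadjusted p of 0.0096 and an adjusted p of 0.788 in edgeR. *Zxdc*, *C030015A19Rik* and *Slc41a3*, the other tested genes among the 3 nearest on each side, had log2 fold changes of 0.05, 0.34 and 0.17 with intervals that held 0.

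In the promoter windows of the other members, CACGTG was found 1 time each in *Klf4* and *Klf6*, so that 3 of 9 windows held it, against 6.02% of all windows. CANNTG was found in 7 of 9, against 66.2% of all windows. CACCC, the box that KLF proteins bind, was found on either strand in 7 of 9 windows and in 52.0% of all, and GGGCGG, a GC box, in 7 of 9 and in 32.7% of all. In the *Klf3* and *Klf13* windows a CACCC and a GGGCGG match share 1 base. With 50 bases after the start included, the *Klf15* window held 3 CACGTG matches, and 0.0884% of all windows held 3 or more. None of these shares over all windows was matched for base content. The RefSeq start of *Klf12* lies 134883 bases from the GENCODE end of the gene, so its window is that of another start.

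Among the oligodendrocyte lineage markers, *Olig1* averaged 12.6 ± 3.51 CPM (SD, n = 5) over WT embryos, and HET embryos averaged 19.4 ± 3.70 CPM (SD, n = 4). *Sox10*, the factor that acts after it in this lineage, was at 1.07 and 1.71 CPM. Their log2 fold changes were 0.63 and 0.67, with unadjusted p-values of 0.0107 and 0.0169 and adjusted p-values of 0.814 and 0.896 in edgeR. Of the 6 markers of this lineage, 5 had a log2 fold change above 0 and 1 below it, at −0.58. The median was 0.16, none of the 6 was called, and their summed levels overlapped between the groups.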
